A study of Mus musculus with 4 samples.

Results

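Wild-type inner ear organoids were compared between day 35 and day 25 of culture. The comparison took every cell barcode of the 2 wild-type libraries in which 500 or more genes were detected and no more than 10% of the unique molecular identifiers (UMIs) came from mitochondrially encoded genes. These were 9768 cells at day 25 and 8166 cells at day 35, 17934 of the 35853 cells kept in the 4 libraries of the series. The organoids were grown from R1/E, a mouse embryonic stem cell line whose labelled strain of origin is 129X1x129S1, with no added allele and no drug treatment named in the labels. The other 2 libraries came from R1/E-Tmprss3KO-GFPKI organoids, a knockout of the membrane serine protease gene Tmprss3 with a GFP knock-in, on the same 2 days, and their values are given only beside those of the wild type. Each library was droplet-based (10x Chromium, version 2 chemistry) with 3' counting, made after TrypLE dissociation and a 40 µm strainer. The labels give neither the number of organoids per library nor separate cultures. Since each day had 1 library, no difference between the days has a replicate check, no test was made, and the 95% intervals cover counting error alone.

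In inner ear organoids, aggregates of embryonic stem cells are guided to form otic vesicles, which then give rise to sensory epithelium with hair cells, the mechanosensitive receptors of hearing and balance, and supporting cells. The surrounding tissue is mixed and can hold skin epithelium, neurons, glia, fibroblasts, cartilage, fat and skeletal muscle. Maturing tissue commonly leaves the cell cycle and lowers imprinted fetal growth genes, and dissociated cells commonly express immediate early and stress genes.

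The day 25 library was the deeper of the pair, with 73025302 UMIs in kept cells against 30887121 and medians of 6166 and 3089 UMIs per cell. The mitochondrial limit removed 195 of 9963 barcodes at day 25 and 1070 of 9250 at day 35. In the cells kept, mitochondrially encoded genes took 2.98% and 4.81% of UMIs and ribosomal protein genes 27.95% and 21.5%. The libraries shared 125 barcode sequences. Every kept day 25 cell reached a UMI minimum that many kept day 35 cells did not. The compared cells thus had different lower limits of depth. Differences in depth, in the mitochondrial share and in removed barcodes cannot be told apart from the day. Of the 10 hair cell markers and 8 otic epithelium markers looked at, every one had UMIs at day 25, and at day 35 only Tectb had none, so otic markers were present on both days. A gene that fewer cells of a kind express and one that each cell expresses less cannot be told apart in sums over a library.

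Summed over the library, 16397 genes had at least 20 UMIs over both days. At day 35, 1266 of them (7.72%) were at least 2-fold higher in CPM, the UMIs of a gene as counts per 1000000 UMIs of the library, and 2290 (14.0%) at least 2-fold lower, with an interval of the log2 ratio without 0. The median log2 ratio of day 35 over day 25 was -0.14. Genes higher made up 35.6% of those called, and 24.9% (812 higher and 2455 lower) in cells with at least 1000 genes and at most 5% mitochondrial UMIs. The genes furthest above included secreted proteins and genes known from the inner ear, and those furthest below included products of neurons, hair follicle keratinocytes and bone and the pluripotency gene Dppa5a. Of the wild-type higher genes, 1229 were measured in the knockout libraries and 764 of those (62.2%) were also at least 2-fold higher there, against 12.8% of all genes. Of the wild-type lower genes, 2204 were measured in the knockout and 685 (31.1%) were also at least 2-fold lower, against 7.71% of all genes. Another 22 of the higher and 159 of the lower genes had the opposite call in the knockout, and the difference between genotypes was not tested.

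Otos, which encodes otospiralin, a protein of inner ear fibrocytes, stood furthest above day 25. Its level was 0.301 CPM at day 25 and 155 CPM at day 35, a log2 ratio of 9.01 (interval 8.41 to 9.69), from 22 and 4796 UMIs. Those UMIs sat in few cells. With each cell thinned to 1500 UMIs, 1 cell held Otos at day 25 and 89 cells (1.09%) at day 35, and 1 cell alone carried 1833 UMIs. In the knockout libraries Otos was 0.249 and 1.49 CPM. Mia, a small secreted protein first known from cartilage and melanoma, was 84.8 CPM at day 25 and 1843 CPM at day 35, a log2 ratio of 4.44 (4.40 to 4.48). Mia was broad: after thinning 4.71% and 23.9% of cells held it, and without thinning 12.0% and 32.8%. Cells with otic markers held 33.3% of its UMIs at day 25 and 44.8% at day 35.

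Slc26a4 encodes pendrin, an anion exchanger of the endolymphatic duct and sac and of other non-sensory inner ear cells. It was 2.34 CPM at day 25 and 31.0 CPM at day 35, a log2 ratio of 3.73 (3.49 to 3.97), and cells with otic markers held 45.0% of its UMIs at day 35. Cib3, a calcium-binding subunit of the hair cell transduction machinery, was 0.452 CPM and 7.54 CPM, a log2 ratio of 4.06 (3.53 to 4.63). Cells with otic markers held 15.4% of Cib3 UMIs at day 35. Both genes were higher at day 35 in the knockout as well, with log2 ratios of 3.41 and 5.07. Genes of which cells with otic markers held more were Rnase1, a secreted ribonuclease (4.81 and 83.7 CPM), Gpx2, a glutathione peroxidase (27.4 and 287.6 CPM), Cst6, a cysteine protease inhibitor (24.7 and 257 CPM), and the secretoglobin Scgb1c1 (0.726 and 9.62 CPM). Between 30.1% and 45.5% of their day 35 UMIs were in cells with otic markers. At day 25 these shares were 34.8% for Rnase1, 20.5% for Gpx2, 15.1% for Scgb1c1 and only 3.27% for Cst6. For Cst6, 1 cell held 578 of the 1804 UMIs at day 25. The stricter cell filter (at least 1000 genes, at most 5% mitochondrial UMIs) moved several CPM ratios of these genes by over 1.5 times. The log2 ratio was then 3.40 for Mia, 2.26 for Slc26a4, 2.52 for Cib3, 3.11 for Rnase1 and 2.51 for Scgb1c1, and that of Cib3 was 4.92 with no filter on cells.

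Serpina3m and Orm2, members of gene families known from the acute phase response, had log2 ratios of 4.06 and 3.91. Wfdc18, a small secreted protein with a whey acidic protein domain, had 3.52. Gm6619 and 5430401F13Rik, 2 gene models that overlap on chromosome 6, had 3.89 and 3.92 and cannot be counted as separate observations. Sprr2f, an epidermal envelope protein, and Mup20, a major urinary protein, completed the 15 highest genes with 3.66 and 3.76. Sprr2f and Mup20 were held by few cells, 0.0735% and 0.269% after thinning at day 35. The other genes were clustered too. The 1% of day 35 cells with most UMIs held 94.4% of Orm2 and 89.5% of Wfdc18 UMIs. For Gm6619, 5430401F13Rik and Serpina3m this share was 86.8%, 84.5% and 50.95%. Cells with keratinocyte markers held 52.5% of Wfdc18 UMIs at day 25 and 8.94% at day 35. For Sprr2f, 1 cell held 33 of 49 UMIs at day 25 and 1 cell 181 of 262 at day 35, so its ratio rests mainly on 1 cell per library. With the stricter cell filter the log2 ratios of Serpina3m, Wfdc18 and Sprr2f were 4.80, 2.44 and 4.46. Serpina3m, Orm2, Sprr2f and Mup20 have close paralogs, so reads may have been split among copies. All 15 had positive log2 ratios in the knockout too, smaller ones in 12 of them, and Mup20, with 0.94, was below 2-fold there.

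Among the lower genes, Ibsp, bone sialoprotein, had 1481 UMIs at day 25 (20.3 CPM) and 0 at day 35. With the 0 set at a floor of 3 UMIs, its log2 ratio of -7.71 is a bound. At day 25, 85.6% of its UMIs were in cells with markers of bone-forming mesenchyme, and 1 cell held 638. Ibsp is itself one of those markers, and only 10 cells at day 25 met that marker set, so this share is partly set by the choice of markers. Neuronal genes followed. Ina, the neurofilament protein alpha-internexin, was 37.5 CPM at day 25 and 0.0648 CPM at day 35, 2740 UMIs against 2. Tubb3, neuronal tubulin, was 96.8 and 1.39 CPM, a log2 ratio of -6.12 (-6.59 to -5.69). Igfbpl1, Crmp1, Tmem163, the hypothalamic homeobox gene Otp and Mir124-2hg, host transcript of a neuronal microRNA, were at most 0.227 CPM at day 35. Tubb3 is itself one of the neuron markers used. Cells with neuron markers held between 54.9% and 82.0% of the day 25 UMIs of these 7 genes, which therefore cannot be counted as separate observations. In the knockout their log2 ratios ran from -4.26 for Otp, a bound since it had no UMI at day 35, to -0.71 for Igfbpl1.

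Krt35 and Krt28, keratins of the hair shaft and inner root sheath, were 13.5 and 5.34 CPM at day 25, with 1 UMI and none at day 35. Mt4, the metallothionein of stratified epithelium, was 13.9 and 0.130 CPM. All 3 were lower in the knockout too, with log2 ratios of -8.87 for Krt35, a bound since it had no UMI at day 35, -8.37 for Krt28 and -7.36 for Mt4. Serpinb3a, an epidermal serine protease inhibitor, was 5.78 CPM at day 25 with no UMI at day 35, and 91.7% of its day 25 UMIs were in cells with keratinocyte markers. Hes5, a Notch target of neural progenitors, was 34.3 and 0.389 CPM. Dppa5a, a gene of pluripotent cells, was 18.8 and 0.130 CPM, while in the knockout it was 2.01 CPM at day 25 and 694.9 CPM at day 35. 1700013H16Rik, an X-linked gene, likewise had log2 ratios of opposite sign, -5.65 in the wild type with no UMI at day 35 and 5.63 in the knockout. With the stricter cell filter all 15 lower genes had log2 ratios of -4.35 or below, among them Krt35 (-5.93), Hes5 (-8.65) and Ina (-7.26), with genes at 0 UMIs set at the floor of 3 UMIs. With cells weighted equally Dppa5a had a log2 ratio of -5.58.

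**Figure D1:**
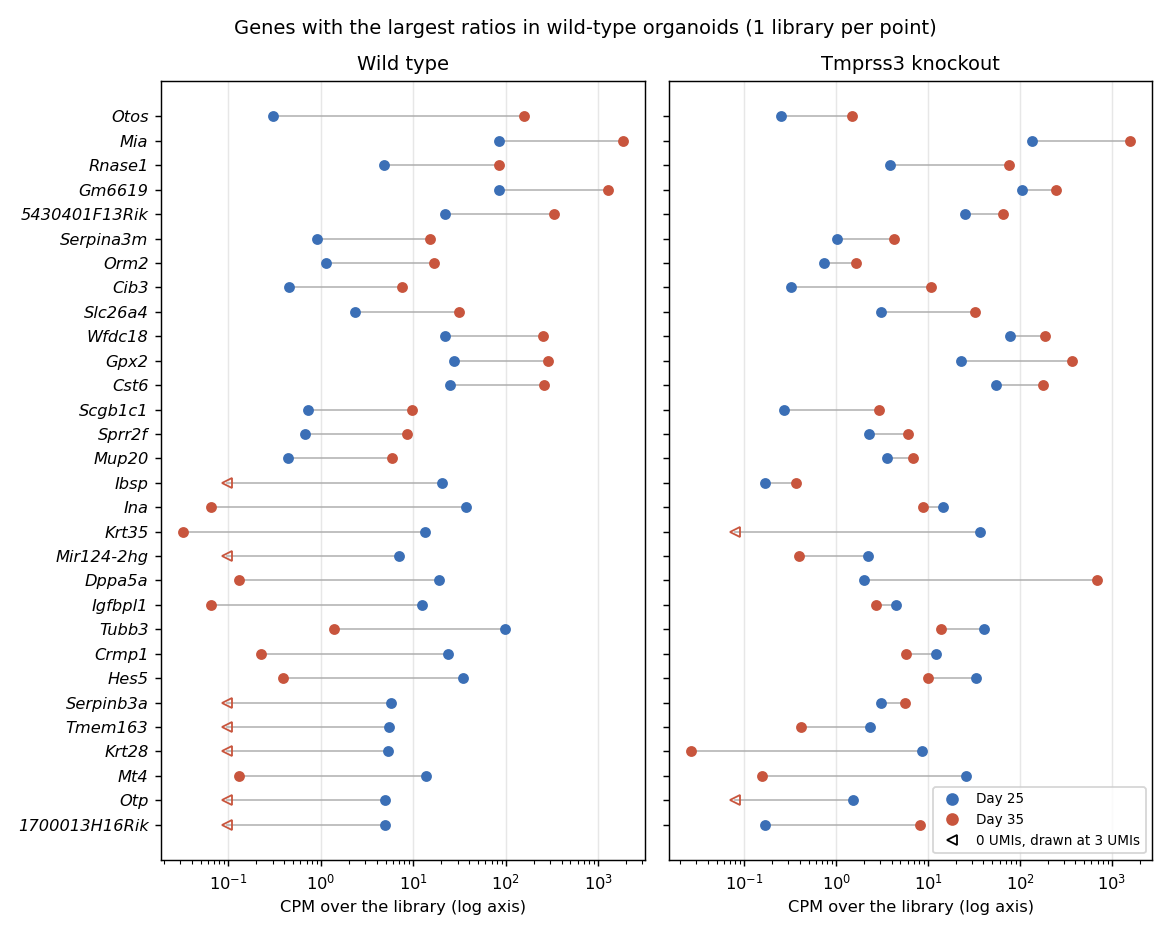
Levels of the 15 genes furthest above and the 15 furthest below day 25 in the wild type (left), with the same genes in the knockout (right). Each point is 1 library in CPM on a log axis, blue for day 25 and red for day 35, and open arrows mark 0 UMIs drawn at 3 UMIs. Otos spans 0.301 to 155 CPM in the wild type and 0.249 to 1.49 CPM in the knockout, and Dppa5a runs in opposite directions in the 2 panels.

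To follow tissues, each cell was thinned to 1500 UMIs, which left out no cell, and put in a marker gate when at least 2 markers of that set had a UMI. A gate is a range of a marker count, not a cell type, and cells with 1 marker lie just outside it. No gate took 52.2% of cells at day 25 and 59.6% at day 35, and 4.21% and 2.22% were in 2 or more gates. As a background, the share of skeletal muscle-gated cells (median 8795 UMIs at day 25 and 3774 at day 35) that also entered another gate is given for each gate described where it was not 0 on both days.

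Inner ear gates held more cells at day 35. The hair cell gate (among others Pou4f3, Gfi1, Otof, Myo7a and Tmc1) took 16 cells (0.164%, interval 0.0937 to 0.266) at day 25 and 50 cells (0.612%, 0.455 to 0.806) at day 35, a ratio of 3.74 (2.09 to 7.03). Among muscle-gated cells 0.0884% and 0.226% met it, and without thinning the shares were 0.522% and 0.870%, a ratio of 1.67. A further 117 and 162 cells had exactly 1 hair cell marker, and 5 and 11 cells exactly 2. With no filter on cells the hair cell gate took 26 cells (0.261%) and 123 cells (1.33%). With the stricter cell filter it took 5 cells (0.0568%) and 6 cells (0.187%). The share of hair cell-gated cells at day 35 thus depended on the cell filter. The otic epithelium gate (Oc90, Otoa, Otog, Otogl, Otol1, Cldn9, Tectb and Tecta) took 111 cells (1.14%) and 423 cells (5.18%), a ratio of 4.56 (3.69 to 5.67), with 0.354% and 1.13% of muscle-gated cells as background, and without thinning the ratio was 2.91. The knockout ratios were 4.82 for the hair cell gate and 11.5 for the otic gate, from separate libraries. The fibrocyte gate (Otos, Otor, Coch, Pou3f4 and Tbx18) took 46 and 58 cells, a ratio of 1.51 (1.01 to 2.27) that turned to 0.951 when cells were thinned to 1000 UMIs and 0.964 with no thinning. Of muscle-gated cells none at day 25 and 0.339% at day 35 met the fibrocyte gate. At day 25, 60.9% of fibrocyte-gated and 33.3% of otic-gated cells were also in the cartilage gate.

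Gates of the nervous system nearly emptied. The neuron gate (Stmn2, Snap25, Elavl3, Nefl, Syt1 and Tubb3) took 524 cells (5.36%, 4.93 to 5.83) at day 25 and 7 cells (0.0857%, 0.0345 to 0.177) at day 35, 62.6-fold fewer per cell counted (30.2 to 156). The muscle background was 0.707% and 0. The astrocyte gate (Gfap, Aqp4 and Slc1a2 among others) took 101 and 7 cells, 12.1-fold lower (5.65 to 30.8), with a muscle background of 0.354% and 0, and the oligodendrocyte lineage gate took 31 cells and none, which allows a share of up to 0.0367% at day 35. In the knockout the neuron gate had a ratio of 0.178 and the astrocyte gate the opposite direction, 4.01. The Schwann or satellite glia gate, with 16 and 9 cells and a muscle background of 0 and 0.113%, had an interval that included 1. The keratinocyte gate (Krt5, Krt14, Krt15 and others) took 469 cells (4.80%) and 83 cells (1.02%), 4.72-fold lower (3.73 to 6.04), against a knockout ratio of 0.993. At day 25, 1.68% of muscle-gated cells also met the keratinocyte gate, and none did at day 35.

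Muscle and fibroblast gates made up similar shares on both days. The skeletal muscle gate (Myog, Myh3, Ttn and others) took 1131 cells (11.6%) and 884 cells (10.8%), a ratio of 0.935 (0.855 to 1.02), and the fibroblast gate (Dpt, Lum, Pdgfra and others) 1906 cells (19.5%) and 1686 cells (20.7%), a ratio of 1.06 (0.990 to 1.13). With no filter on cells the muscle ratio was 1.14 and with no thinning 0.601, and with no thinning the fibroblast ratio was 0.698. Of muscle-gated cells 3.18% and 4.75% met the fibroblast gate, and of keratinocyte-gated cells 4.05% and none met the muscle gate. In the knockout the muscle ratio was 0.304. The myogenic progenitor gate (Pax7, Myf5, Myod1, Msc and Cdh15) took 261 and 162 cells, a ratio of 0.742, and 35.2% and 22.8% of them were in the muscle gate as well. That ratio was 0.363 with no thinning, 0.315 with the stricter cell filter and 0.319 with at least 3 markers. Of muscle-gated cells 92 of 1131 (8.13%) at day 25 and 37 of 884 at day 35 met the progenitor gate. At day 25 that was more than the 2.67% of all cells. The adipocyte gate took 337 cells (3.45%) and 56 cells (0.686%), 5.03-fold lower (3.78 to 6.80), with a muscle background of 1.5% and 0.226%. The cartilage gate took 107 and 42 cells, 2.13-fold lower (1.48 to 3.12), with a muscle background of 0.177% and 0.113%, while the knockout ratio was 2.87. The cycling gate (Top2a, Cdk1, Mki67 and others) took 723 cells (7.40%) and 190 cells (2.33%), 3.18-fold lower (2.71 to 3.75). Of muscle-gated cells 8.13% and 3.17% met the cycling gate, more than of all cells on each day. The pluripotent gate held 12 cells at day 25 and 1 cell at day 35. The immune, melanocyte, erythroid and cardiac muscle gates held no cell on either day, which allows shares of up to 0.0307% and 0.0367%.

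**Figure D2:**
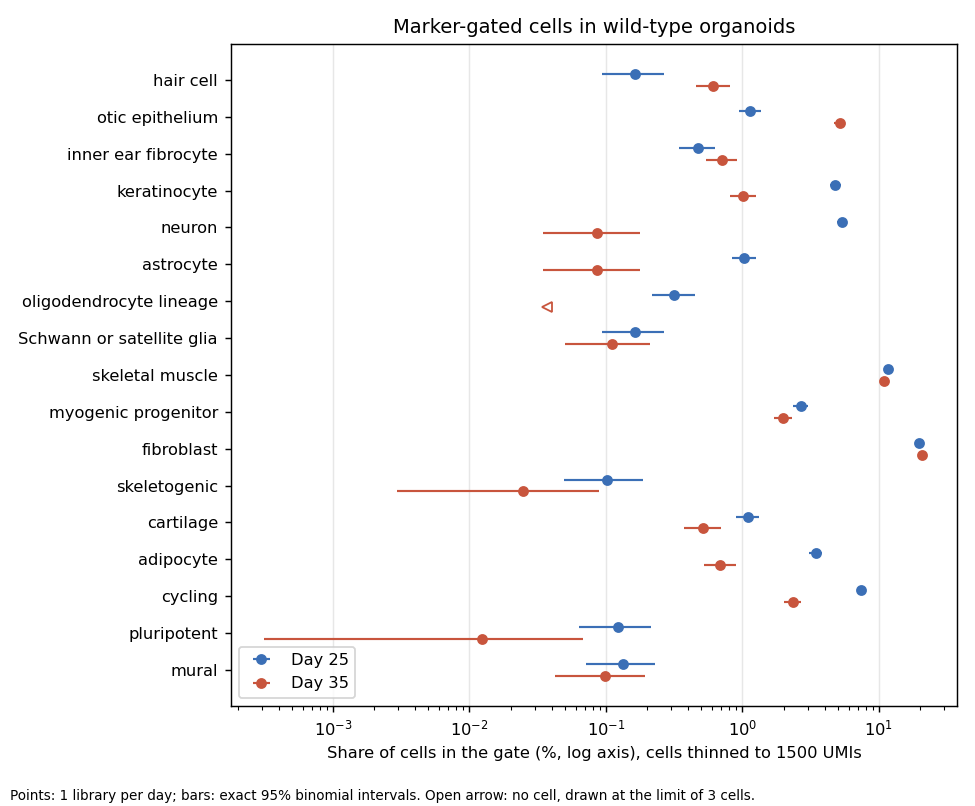
Share of wild-type cells in each marker gate after thinning to 1500 UMIs, on a log axis in percent, blue for day 25 and red for day 35. Points are 1 library each with exact 95% binomial intervals, and the open arrow marks no cell, drawn at the limit that 3 cells would give. The hair cell and otic gates lie to the right at day 35, and the neuron gate moves from 5.36% to 0.0857%.

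The cell cycle genes were lower as a group. Of 23 genes of G2 and M phase, 21 were at least 2-fold lower and none higher, with a median log2 ratio of -1.78 against -0.14 for all genes, and their summed level was 806 CPM at day 25 and 268 CPM at day 35. Ube2c, a ubiquitin-conjugating enzyme of mitotic exit, was 107 and 22.7 CPM, and Cdk1, the mitotic kinase, 69.3 and 21.9 CPM. Bub1 and Smc4 were the 2 members not called, with log2 ratios of -0.73 and -0.57. Within the cycling gate, which was chosen on 7 of these genes, the median was 0.23, while within the fibroblast and skeletal muscle gates it was -2.41 and -1.60. In the otic gate, with 8 members measured, it was -3.24. The fall was smaller in the keratinocyte gate, with a median of -0.54 and 5 of 23 lower. In the myogenic progenitor gate the median was -0.36, with 1 of 23 lower and 1 higher. Of 20 genes of S phase, 11 were lower and 1 higher, with a median of -1.05. The one above was Pcna, the sliding clamp of DNA polymerase, at 15.2 and 53.6 CPM, a log2 ratio of 1.82. Pcna was also higher in each of 7 gates, by 1.38 to 2.83. In the knockout the G2 and M median was -0.42 and the S phase median 0.38. Of 7 CDK inhibitors 1 was higher and 1 lower, with a median of 0.13. Cdkn2a, which encodes the cell cycle inhibitor p16 and the p53 activator Arf, was 13.9 and 45.9 CPM, a log2 ratio of 1.72. Cdkn1c, an imprinted CDK inhibitor, was 578 and 254 CPM, and it was below day 25 in all 7 gates and at least 2-fold in 5.

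Promoters of G2 and M genes are shown because these genes were lower together. The windows run from 250 bases before to 50 after the RefSeq gene start on GRCm38.p6, for Cdk1 (chr10:69352863-69353162, minus strand), the mitotic activator Cdc20 (chr4:118437294-118437593, minus strand) and the mitotic kinase Plk1 (chr7:122159185-122159484, plus strand). Capitals mark TTTGAA on either strand, the core of an element known from cell cycle promoters.
Cdk1: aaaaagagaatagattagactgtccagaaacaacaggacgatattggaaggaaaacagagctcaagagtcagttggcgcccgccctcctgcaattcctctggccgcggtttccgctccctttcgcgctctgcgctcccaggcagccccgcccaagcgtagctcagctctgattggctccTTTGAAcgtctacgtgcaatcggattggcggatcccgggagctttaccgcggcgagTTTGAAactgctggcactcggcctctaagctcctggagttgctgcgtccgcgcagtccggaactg
Cdc20: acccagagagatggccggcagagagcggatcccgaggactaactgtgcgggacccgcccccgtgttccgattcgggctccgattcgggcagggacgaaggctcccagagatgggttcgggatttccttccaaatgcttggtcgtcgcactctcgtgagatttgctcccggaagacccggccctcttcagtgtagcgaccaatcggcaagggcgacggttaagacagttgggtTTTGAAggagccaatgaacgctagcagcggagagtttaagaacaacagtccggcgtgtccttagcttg
Plk1: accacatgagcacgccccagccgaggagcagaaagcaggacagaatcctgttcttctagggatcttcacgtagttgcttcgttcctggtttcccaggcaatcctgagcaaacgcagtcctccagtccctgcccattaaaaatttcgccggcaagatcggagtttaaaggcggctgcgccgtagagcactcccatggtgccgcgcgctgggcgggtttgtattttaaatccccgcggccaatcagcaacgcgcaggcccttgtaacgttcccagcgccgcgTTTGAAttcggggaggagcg

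Of 19 G2 and M genes with a window in the table, 13 held TTTGAA on either strand, against 17.8% of all windows of that length and 2 of 16 S phase genes. Ccnb1, cyclin B1, was lower (38.9 and 14.9 CPM) and held no TTTGAA in its window. The match is a description of these letters and not of binding.

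Imprinted growth genes, which are active from 1 parental copy and high in fetal tissue, were also lower. Of 18 measured members 13 were at least 2-fold lower and none higher, with a median log2 ratio of -1.47, and their sum was 10130 CPM at day 25 and 2924 CPM at day 35. Meg3, a long non-coding RNA, was 3611 and 851 CPM, and its neighbour Dlk1, a membrane inhibitor of differentiation, 2206 and 482 CPM. H19, a non-coding RNA next to Igf2, was 938 and 298 CPM, and the growth factor gene Igf2 itself 851 and 348 CPM. Mest was 612 and 115 CPM, and Nnat, highest in neurons, 390 and 22.6 CPM. Impact, with a log2 ratio of 0.54, Sgce, with 0.16, and Igf2r, with -0.07, stood apart from these. The knockout libraries gave 14 of 18 lower and a median of -1.75.

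Lower levels of imprinted genes were also measured inside the gates. The median of the list was below 0 in each of 7 gates, from -0.38 in the cycling gate to -1.34 in the fibroblast gate. Dlk1 in fibroblast-gated cells was 4515 CPM at day 25 and 775 CPM at day 35, a log2 ratio of -2.54, and in myogenic progenitor-gated cells 2178 and 1533 CPM, a log2 ratio of -0.51. Dlk1, Meg3, H19 and Igf2 were below day 25 in all 7 gates, at least 2-fold in 5, 5, 5 and 1 of them. H19 had a log2 ratio of -2.47 in fibroblast-gated and -0.26 in skeletal muscle-gated cells, and differences between gates were not tested. Ndn, a gene of neurons and mesenchyme, and Nnat were at least 2-fold lower in all 7.

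Hox genes, which record position along the body axis, were lower over the library in 22 of 23 members, with a median log2 ratio of -2.36 and a sum of 158 CPM at day 25 and 35.4 CPM at day 35. Hoxc10 was 10.4 and 1.04 CPM and Hoxa7 10.6 and 1.52 CPM, and Hoxd8, with -0.44, was the member not called. In muscle-gated cells the median over 19 members was -2.30 and in fibroblast-gated cells -1.03. It was -0.80 in myogenic progenitor-gated cells, with 3 of 9 measured members lower. In keratinocyte-gated cells it was -0.25, with 1 of 10 lower and none higher. No Hox gene reached 20 UMIs in otic-gated cells. In the knockout 7 of 22 were lower, with a median of -0.41.

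Lists of neural, skin and fat genes moved in the same direction as the gates. The lists share members with the gate markers, among them Gfap, Krt5, Krt14, Adipoq, Fabp4 and Pou5f1, so they are not separate support. Of 18 neuronal cytoskeleton and synapse genes 16 were lower (median -2.86), and Vamp2, a vesicle protein of many tissues, had a log2 ratio of 0.39. Of 13 neuropeptides and granins 7 were lower and 1 was higher, Gal, which encodes galanin, at 1.64 and 8.48 CPM. Of 15 glial and myelin genes 8 were lower, among them Fabp7 (363 and 12.7 CPM) and Gfap (48.8 and 3.98 CPM). Apoe, a lipid carrier made by many cell types, was 1321 and 3387 CPM and carried the sum of that list upward. Of 11 adipocyte genes 10 were lower, among them Adipoq (27.7 and 3.14 CPM) and Fabp4 (604.5 and 189 CPM). All 8 measured pluripotency genes were lower, with Pou5f1 at 3.33 and 0.259 CPM.

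Keratins divided by epithelium. Of 16 members 11 were lower, all of them keratins of stratified epithelium or skin appendages except Krt19, with Krt14 at 238 and 31.7 CPM and Krt5 at 102 and 9.19 CPM. Krt18 and Krt8, the pair of simple epithelium, were higher, at 185 and 696.5 CPM and at 128 and 276 CPM. The sum of all 16 keratins was 1039 CPM at day 25 and 1127 CPM at day 35. Within the otic gate Krt18 had a log2 ratio of 0.81 and Krt8 of 0.32, both below 2-fold.

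In lists of inner ear epithelium more members were higher than lower over the library, and the share of otic-gated cells moved with them. Of 15 connexins and claudins 8 were higher and 2 lower (median 1.19), with the tight junction genes Cldn9 at 25.7 and 132 CPM and Cldn8 at 3.49 and 19.9 CPM, and the gap junction gene Gjb6 at 16.8 and 43.0 CPM. Of 17 hair bundle and transduction genes 7 were higher and 1 lower (median 0.81). Among them were Pcdh15, a tip link cadherin (1.41 and 4.01 CPM), Tmc1, a channel subunit (0.246 and 0.712 CPM), and Ptprq (0.205 and 0.745 CPM), while Whrn was 4.23 and 1.43 CPM. Tmc1 and Ptprq rest on few UMIs, and Tmc1 is itself a marker of the hair cell gate. Of 8 otoconial and tectorial genes 3 were higher and 2 lower. Otoa and Otol1 were 8.82 and 42.8 CPM and 16.6 and 72.8 CPM, whereas Oc90, the main otoconial matrix protein, was 64.3 and 11.2 CPM. Inside the otic gate, whose markers include several of these genes, the lists did not follow the library. Of 7 otoconial and tectorial genes measured there none was higher and 4 were lower (median -1.27), of 10 hair bundle genes 1 was higher and 5 lower (median -0.90), and of 13 connexins and claudins 2 were higher and 2 lower (median 0.03). Of all 9787 genes measured in the otic gate 5.97% were higher and 11.3% lower.

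Among 23 otic transcription factors 3 were higher and 5 lower, beside 7.72% and 14.0% of all genes. The median of the list was 0.27, and it was -0.90 in cells with at least 1000 genes and at most 5% mitochondrial UMIs. Eya1 (9.83 and 28.9 CPM), Hmx2 (3.51 and 10.1 CPM) and Lmx1a (7.63 and 16.9 CPM) were above day 25. Gata3, Gata2, Tbx1, Sox2 and Atoh1 were below it, with Sox2 at 29.0 and 10.6 CPM and Atoh1, which starts hair cell fate, at 0.561 and 0.227 CPM. Sox2 and Gata3 also mark neural and skin tissue, and their part in those tissues was not tested. In the knockout Sox2 had a log2 ratio of 1.49. Of 7 secreted fibrocyte proteins 4 were higher, Otos, Ptgds (523 and 2355 CPM), Apod (173 and 702 CPM) and Clu (83.5 and 250.2 CPM), whereas Coch and Otor had log2 ratios of -0.66 and -0.64. Ptgds and Apod were at least 2-fold higher in each of 7 gates, none of them the fibrocyte gate. Of the 5 fibrocyte gate markers 1 was higher, Otos, and 1 lower.

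Muscle genes differed little as a list but not member by member. Of 26 sarcomere genes 3 were higher and 2 lower, with a sum of 8977 and 9516 CPM. Their median was 0.09, and it was -0.54 in cells with at least 1000 genes and at most 5% mitochondrial UMIs and 0.50 with no filter on cells. Actc1, the cardiac actin of immature skeletal muscle, was 1018 and 230 CPM, and Actn2 71.7 and 35.1 CPM. The adult fast myosins Myh1 and Myh4 were 0.726 and 4.47 CPM and 0.260 and 1.39 CPM, and Myl2 was 0.383 and 1.26 CPM. Embryonic myosin Myh3 had a log2 ratio of -0.86 and the fast troponin Tnnc2 of 0.92. In muscle-gated cells Actc1 was 5676 and 1500 CPM, Myh1 4.01 and 24.6 CPM and Myl1 3431 and 6670 CPM, with log2 ratios of -1.92, 2.62 and 0.96. In the knockout the list median was -1.36, with 18 of 26 lower. Of 15 myogenic regulators Myf5 was higher (16.8 and 36.5 CPM) and Pax3, Myod1 and Cdh15 lower, with Myod1 at 57.1 and 22.5 CPM.

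Connective tissue lists had members in both directions. Of 11 fibrillar collagen chains only the cartilage chain gene Col2a1 was lower (20.9 and 3.01 CPM), and Col1a1 was 1812 and 1168 CPM, a log2 ratio of -0.63. Of 26 matrix proteoglycans and glycoproteins 5 were higher and 3 lower, with a median of -0.05. Mfap5, a microfibril protein, was 36.4 and 184 CPM, and Cilp 10.2 and 34.5 CPM. In fibroblast-gated cells, for which Mfap5 was a gate marker, Cilp was 30.4 and 148 CPM. Of 13 metalloproteinases and inhibitors Mmp3 (35.6 and 175 CPM) and Mmp10 were higher and Mmp9 and Timp4 lower. Of 13 osteogenic genes 2 were higher and 6 lower, among them Ibsp, Bglap and Sp7, while the higher members were Spp1, osteopontin, at 99.8 and 552 CPM and Dmp1 at 3.74 and 18.2 CPM. Spp1 was at least 2-fold higher in fibroblast-gated cells too, 141 and 1385 CPM.

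**Figure D3:**
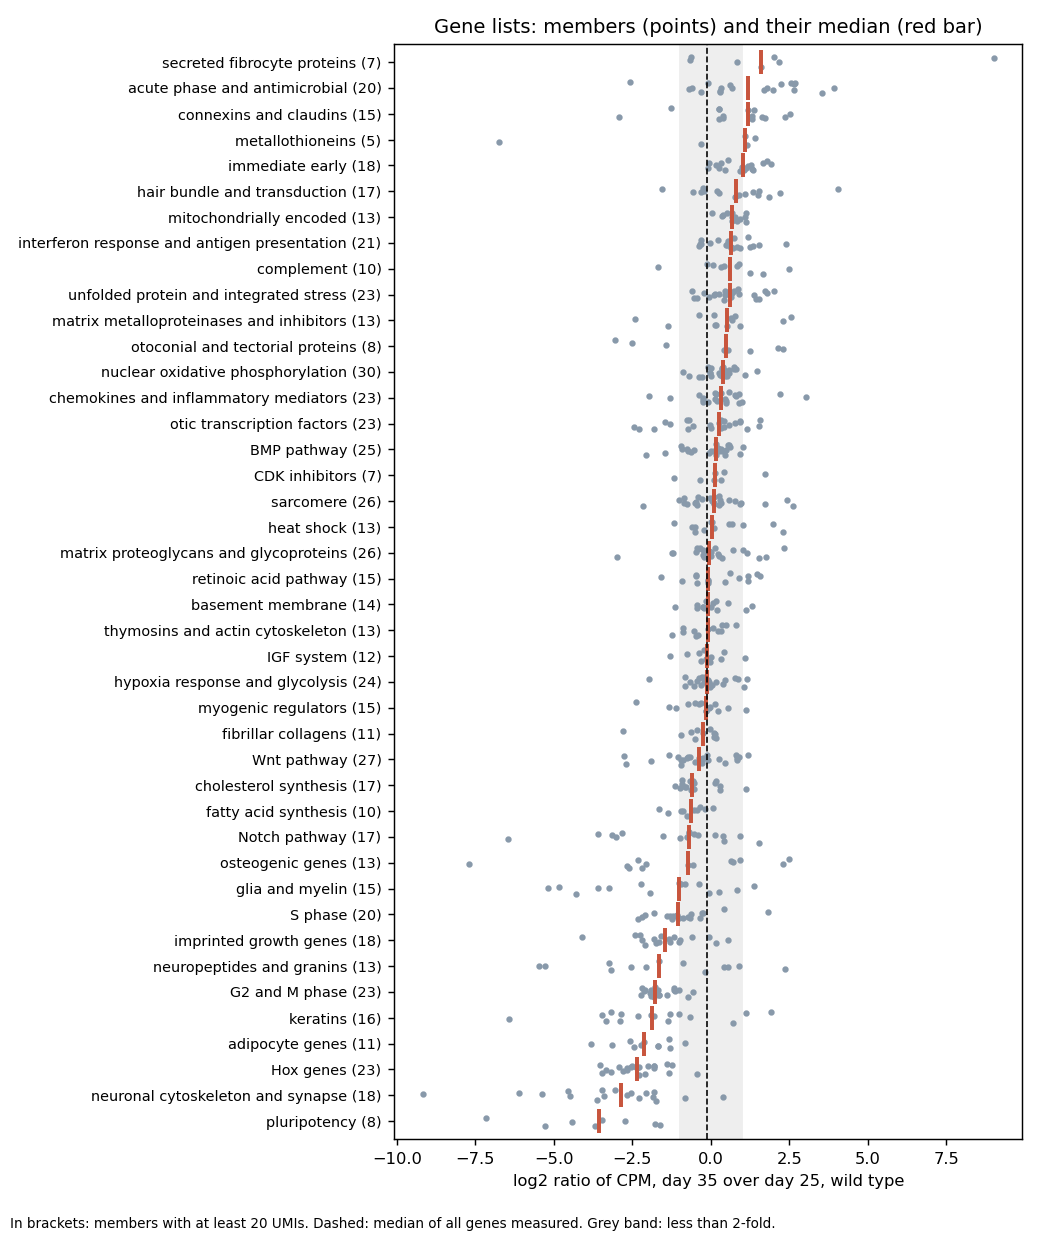
Log2 ratio of CPM, day 35 over day 25, for each measured member (points) and the median (red bar) of 42 gene lists in the wild type, with the number of members in brackets. The dashed line is the median of all genes at -0.14 and the grey band covers differences below 2-fold. Hox genes (-2.36), G2 and M phase (-1.78) and imprinted growth genes (-1.47) lie almost wholly left of 0, and immediate early genes (1.02) and the acute phase list (1.19) mostly right.

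Metallothioneins, which bind zinc and copper, were higher in 3 of 5 measured list members. Mt1 was 1786 CPM at day 25 and 4672 CPM at day 35, a log2 ratio of 1.39, and Mt2 1028 and 2298 CPM, a log2 ratio of 1.16. Mt3 was 81.8 and 173 CPM, and the zinc exporter gene Slc30a1 had a log2 ratio of -0.32. Mt4, of skin, went the other way. Mt1 was above day 25 in all 7 gates and at least 2-fold in 6, with the highest ratio in myogenic progenitor-gated cells, 580 and 3662 CPM.

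The promoters of Mt1 (chr8:94178839-94179138, plus strand), Mt2 (chr8:94172368-94172667, plus strand) and Mt4 (chr8:94136954-94137253, plus strand) are given because Mt1 and Mt2 were higher together while Mt4 was lower. Capitals mark TGCACNC or TGCGCNC on either strand, the core of the metal response element, of which Mt1 held 3, Mt2 4 and Mt4 1. Mt3, which was higher, also held 1.
Mt1: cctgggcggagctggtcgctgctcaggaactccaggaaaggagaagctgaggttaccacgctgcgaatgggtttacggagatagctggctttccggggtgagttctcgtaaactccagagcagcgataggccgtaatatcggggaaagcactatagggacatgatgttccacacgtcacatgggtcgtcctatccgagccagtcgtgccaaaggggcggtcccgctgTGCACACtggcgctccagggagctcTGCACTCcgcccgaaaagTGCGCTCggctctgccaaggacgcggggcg
Mt2: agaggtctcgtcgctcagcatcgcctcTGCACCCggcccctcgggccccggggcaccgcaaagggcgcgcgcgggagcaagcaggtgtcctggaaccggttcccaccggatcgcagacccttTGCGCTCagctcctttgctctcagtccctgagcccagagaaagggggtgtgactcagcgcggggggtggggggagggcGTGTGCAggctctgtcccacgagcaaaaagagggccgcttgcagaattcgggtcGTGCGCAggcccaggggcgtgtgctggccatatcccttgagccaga
Mt4: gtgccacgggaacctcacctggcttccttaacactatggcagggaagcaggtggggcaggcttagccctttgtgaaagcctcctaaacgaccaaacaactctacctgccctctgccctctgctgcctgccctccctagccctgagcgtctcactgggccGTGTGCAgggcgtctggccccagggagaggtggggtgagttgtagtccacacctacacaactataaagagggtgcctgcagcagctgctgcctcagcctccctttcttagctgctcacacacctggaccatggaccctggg

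This core was in 5 of 5 list members with a window and in 25.9% of all windows of that length, and 8 of the 19 G2 and M genes held it as well. It was thus in the window of Mt4 and Slc30a1, which were not higher, as well as in those of Mt1, Mt2 and Mt3.

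Among secreted defence proteins of the acute phase and antimicrobial list more were higher than lower. Of 20 acute phase and antimicrobial genes 10 were higher and 1 lower, with a median of 1.19. Slpi, a leukocyte protease inhibitor, was 33.9 and 209.5 CPM, Reg3g, an antimicrobial lectin, 48.6 and 226 CPM, Wfdc2 140 and 456 CPM, and Saa1 2.92 and 18.8 CPM. The abundant Saa3 (642 and 982 CPM) and Lcn2 (517 and 822 CPM) were below 2-fold. In otic-gated cells 10 of 13 were higher, against 5.97% of all genes measured there, with Slpi at 67.3 and 485 CPM. Among complement genes C4b and Serping1 were higher and Cfd, an adipocyte product, was lower. Of 23 chemokines and mediators Cxcl13 (11.0 and 50.2 CPM) and Ccl8 (1.05 and 8.68 CPM) were higher, and Ccl20 and Cxcl10 lower. Over all genes 7.72% were higher and 14.0% lower, so this list did not stand out in its share of higher genes. The immune gate was empty on both days, and C1qa and Tyrobp had no UMI in either library. Of 21 interferon and antigen presentation genes 5 were higher, among them H2-D1 (40.8 and 118 CPM) and Cd74 (1.66 and 8.71 CPM), with H2-D1 having paralogs.

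Of 18 immediate early genes 9 were higher and none lower (median 1.02), and of 23 unfolded protein and integrated stress genes 6 were higher and none lower (median 0.60). Of 13 heat shock genes 3 were higher, Hspa1a, Hspa1b and Dnajb1, and Hsp90ab1 was lower (1683 and 747 CPM), with a median of 0.02 and a sum of 5111 and 3887 CPM. Fosb was 88.4 and 330.2 CPM, Fos 952 and 2059 CPM, and Dusp1, a kinase phosphatase, 127 and 399 CPM. Of the unfolded protein and integrated stress genes, Nupr1, a stress-induced chromatin protein, was 372.5 and 1491 CPM, Hspa5, the main chaperone of the endoplasmic reticulum, 529 and 1418 CPM, and Atf3 59.7 and 204 CPM. Calr and Atf4 had log2 ratios of -0.60 and -0.53. The immediate early median was between 0.87 and 1.45 in the otic, keratinocyte, muscle, progenitor and cycling gates, 0.22 in the adipocyte gate and -0.02 in the fibroblast gate. Nupr1 was at least 2-fold higher in all 7 gates. The mitochondrial UMI share moved with these genes (2.98% and 4.81%), and the part of dissociation was not tested.

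Few energy genes were called. Of 13 mitochondrially encoded genes 3 were higher, with a median of 0.68, and of 30 nuclear genes of oxidative phosphorylation 2 were higher, Ndufa1 (107 and 298 CPM) and Uqcrb (457 and 972 CPM), with a median of 0.37. Cells over 10% mitochondrial UMIs had been removed, which bounds the first list. Of 24 hypoxia and glycolysis genes Bnip3 and Adm were higher and Pgk1 lower (617 and 158 CPM), with a median of -0.14. Of 17 cholesterol synthesis genes 1 was higher, Insig1, and 1 lower, Mvk, with a median of -0.62. Of 10 fatty acid synthesis genes 2 were lower, Scd1 at 156 and 49.6 CPM and Fasn at 39.8 and 15.4 CPM, with a median of -0.64.

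Signalling lists were mixed, beside 7.72% of all genes higher and 14.0% lower. Of 17 Notch pathway genes 6 were lower, with Dll3 at 10.3 and 0.842 CPM and Lfng at 11.7 and 1.65 CPM, and only Hes1 was higher, at 229.5 and 658 CPM. Hes1 had log2 ratios of 1.72 in fibroblast-gated, 2.05 in muscle-gated and -0.15 in otic-gated cells. Of 27 Wnt pathway genes 5 were lower, among them Wnt6 (12.9 and 1.91 CPM) and Rspo3 (14.6 and 3.85 CPM), and Sfrp4 was higher. Of 15 retinoic acid genes the synthesis enzymes Aldh1a1, Aldh1a3 and Rdh10 and the breakdown enzyme Cyp26a1 were higher, with Aldh1a1 at 9.09 and 26.7 CPM, and Rbp4, the retinol carrier, was lower (243 and 80.9 CPM). Of 25 BMP pathway genes Grem1 was higher and Msx2 and Gdf10 lower.

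**Figure D4:**
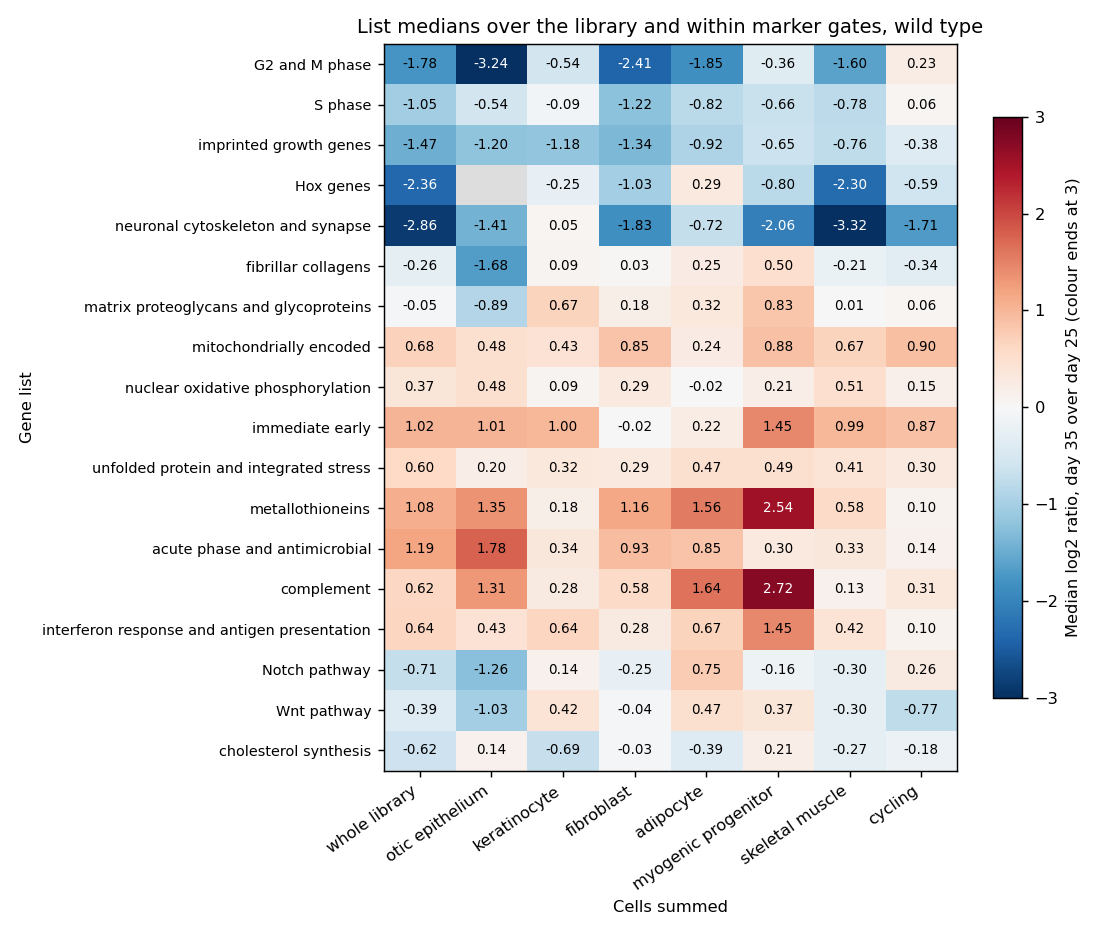
Median log2 ratio of CPM, day 35 over day 25, of 18 gene lists (rows) over the wild-type library and within 7 marker gates (columns), red where higher and blue where lower at day 35. The grey cell had no member with at least 20 UMIs. Imprinted growth genes are below 0 in all columns, and G2 and M phase ranges from -3.24 in the otic gate to 0.23 in the cycling gate.

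The same comparison was made inside each gate with at least 100 cells on both days, the otic epithelium, skeletal muscle, myogenic progenitor, fibroblast and cycling gates. Of 7470 genes measured in all 5, 44 (0.589%) were at least 2-fold higher and 39 (0.522%) at least 2-fold lower in each of them. The gates share cells and all come from 1 library a day, so they are not replicates. Among the higher genes, Mia was 1562 and 11910 CPM in otic-gated, 24.1 and 308 CPM in muscle-gated and 17.9 and 173 CPM in fibroblast-gated cells. Gpx2 was 310.2 and 1542, 6.97 and 65.9, and 6.75 and 45.2 CPM in those gates. S100a1, a calcium-binding protein, was 1798 and 5395, 45.3 and 165, and 75.1 and 275 CPM. Mia, Gpx2 and S100a1 were all highest in otic-gated cells, and the part of free RNA in the other gates was not tested.

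Pdk4, a brake on pyruvate oxidation, Vamp5, Abhd2, Cav2, a caveolin, Hypk and Gadd45g, a stress-response gene, were also among the 10 leading genes of that kind. Gm8797, in the lead with log2 ratios of 2.40 to 2.82 in the 5 gates, is an unnamed gene model on chromosome 3, and how reads shared with related genes were counted is not stated, so its level is uncertain. Ptgds, Apod, Nupr1, Pcna and Ndufa1 were further members of the 44.

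Of the 10 leading lower genes, Nnat was 160 and 5.61 CPM in otic-gated, 143 and 3.58 CPM in muscle-gated and 134 and 12.5 CPM in fibroblast-gated cells. Fabp7 was 27.2 and 0.934, 86.0 and 0.478, and 65.6 and 3.56 CPM in the same gates. Lgals7, a galectin of stratified epithelium, was 98.6 and 3.11 CPM in muscle-gated and 75.2 and 1.86 CPM in fibroblast-gated cells. At day 25, cells with keratinocyte markers held 84.0% of Lgals7 UMIs, and cells with neuron markers held 67.1% of those of Rtn1, 72.4% of Stmn3 and 52.5% of Uchl1. Oc90, itself a marker of the otic gate, was 2068 and 96.2 CPM in otic-gated cells, which held 58.2% of its UMIs at day 25. The neuron and keratinocyte gates, 5.36% and 4.80% of cells at day 25 and 0.0857% and 1.02% at day 35, thus moved with the low levels of these genes in other gates, and the part of free RNA was not tested. Hist1h2ap, a replication-dependent histone, Ly6h and Gm10020 completed the 10. Gm10020 and the histone have close copies.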

How the data were processed

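Each library's deposited matrix holds the authors' raw UMI counts by gene and barcode. Seurat 2.3.1, R 3.5.1, bcl2fastq and Cell Ranger 2.1.0 are listed in the submitters' processing notes, with the builds mm10 and GRCm38. How strand and shared reads were counted is not given in the sources used here. Of 27998 gene identifiers, 27645 were found in a GRCm38 annotation.

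UMIs of kept cells were summed and expressed as CPM of the library or gate. A gene was measured with at least 20 UMIs over both days and called at 2-fold (log2 ratio of 1) with an exact conditional binomial 95% interval without 0. A count of 0 was set to 3 UMIs in a ratio. Shares have Clopper-Pearson intervals, and cells were thinned to 1500 UMIs with a fixed seed. Gates used 136 markers in 23 sets, and 711 of 712 list members were in the files. Up to 15 genes each way were named with at least 200 UMIs, ranked by the interval bound nearest 0, and up to 10 each way that were called in every gate with 100 or more cells. Mitochondrially encoded, ribosomal protein, Xist and Y-linked genes were not named, and members of the lists and markers were named besides. The comparison, markers and lists were chosen with earlier results of these data known.

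Doublet scoring called 0 and 1 cells and so did not work, and all cells stayed in. Interval coverage was checked on simulated counts drawn independently for each gene. That check cannot show coverage for genes whose UMIs are clustered in few cells. Alternatives covered cell filters, thinning, scaling, UMI minimums, marker number and removal of the highest doublet scores, with edgeR 4.0.16 used for the TMM scaling of the counts and no test. Python 3.11.15, scipy 1.17.1, scanpy 1.11.5 and R 4.3.3 were used. Sequences are from RefSeq on GRCm38.p6.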

Additional observations from a re-analysis of the deposited data

Results flagged for a closer look

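The following values had opposite directions in the wild-type and the knockout libraries, each from 1 library per day, and the difference between genotypes was not tested. Dppa5a had a log2 ratio of day 35 over day 25 of -7.18 in the wild type and 8.43 in the knockout. The median of the pluripotency list was -3.57 and 8.25, and the share ratio of the pluripotent gate 0.0997 and 257.8, the latter from 2 cells at day 25 and 310 cells at day 35 in the knockout. 1700013H16Rik had log2 ratios of -5.65 and 5.63. The astrocyte gate had share ratios of 0.0829 and 4.01, and the cartilage gate 0.470 and 2.87.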

How the results depend on the processing

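Over all alternative settings, 39 counts of genes over the library and within single gates stayed within 1.5 times the value given and 3 did not. Of the counts of genes called in every gate, 2 stayed within that limit and 2 did not. List medians stayed within the 95% order-statistic range of the median over members in 453 cases and left it in 9, share ratios of gated cells stayed within their counting interval in 66 cases, left it in 28 and reversed in 2, and log2 ratios of named genes stayed within theirs in 249 cases and left it in 81, none with a change of sign. With at least 1000 genes and at most 5% mitochondrial UMIs per cell (3215 of the day 35 cells left), 812 genes were higher. List medians were then -2.09 for G2 and M phase, -0.90 for otic transcription factors, -0.54 for sarcomere, -0.92 for myogenic regulators, -1.03 for adipocyte genes and 0.18 for mitochondrially encoded genes. The sarcomere median was 0.50 with no filter on cells and with no mitochondrial limit. It was 0.48 over cells above a common minimum of 3094 UMIs, an alternative chosen after seeing the data. That minimum left the day 25 gates unchanged, with 1906 fibroblast-gated and 111 otic-gated cells. At day 35 it cut the fibroblast gate from 1686 to 841 cells and the otic gate from 423 to 250. Their day 35 shares were then 20.66% and 6.141%.

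Share ratios moved with the handling of depth and the number of markers. With no thinning they were 1.67 (hair cell), 2.91 (otic), 0.964 (fibrocyte, reversed), 0.123 (keratinocyte), 0.601 (skeletal muscle), 0.363 (myogenic progenitor), 0.698 (fibroblast), 0.0899 (adipocyte) and 0.208 (cycling). Thinned to 1000 UMIs they were 3.5 (otic), 0.951 (fibrocyte, reversed) and 1.21 (fibroblast). With at least 3 markers they were 2.93 (otic), 0.00392 (neuron), 0.812 (skeletal muscle), 0.319 (myogenic progenitor), 1.38 (fibroblast), 0.189 (cartilage) and 0.142 (adipocyte). With the stricter cell filter they were 2.39 (otic), 0.631 (skeletal muscle), 0.315 (myogenic progenitor), 1.14 (fibroblast), 0.707 (cartilage) and 0.184 (cycling). The skeletal muscle ratio was 1.14 with no filter on cells. Over cells above the common minimum it was 1.2, and the cycling ratio 0.388. Removing the highest doublet scores gave 3.67 (otic) and 0.605 (myogenic progenitor). The cause of these shifts was not tested.

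With at least 3 markers per gate, 5 genes were higher and 12 lower in all 5 gates, and 147 were higher and 84 lower in the myogenic progenitor gate, where fewer cells were left. Scaling by TMM, by medians of ratios or by totals without mitochondrial and ribosomal protein genes moved the median of all genes by 0.08, 0.09 and -0.11. No paired analysis was possible because each day has 1 library. Counts below 20 UMIs and gates of a few cells are limited by depth, and day 35 cells had a median of 3089 UMIs.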

Other observations

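Among the 39 genes at least 2-fold lower in all 5 gates were Eef2, Eef1a1 and Eef1b2, which encode translation elongation factors, and Gnb2l1, which encodes a scaffold protein of the ribosome. The smallest decrease over the 5 gates was 1.37 on the log2 scale for Eef2, 1.33 for Eef1a1, 1.14 for Eef1b2 and 1.39 for Gnb2l1. These 4 were chosen after their values were seen, and reads of processed copies of such genes can be counted with them. By the annotation, 1110 measured genes were long non-coding RNAs or other genes that are neither protein-coding nor pseudogenes. Of these 188 (16.9%) were at least 2-fold higher at day 35 and 157 (14.1%) lower, against 1060 (6.99%) higher and 2109 (13.9%) lower of 15173 protein-coding genes.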
